A study of Danio rerio and Xiphophorus maculatus with 12 samples.

Results

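Collagen chain genes encode the alpha chains that wind together into collagen molecules, the main fibre proteins of the extracellular matrix. They were taken as every gene whose symbol reads col, a type number, a and a chain number with an optional letter, in upper or lower case. By this rule 35 of 24209 listed platyfish genes and 55 of 32520 listed zebrafish genes were collagen chain genes, 90 of 56729 in all. The platyfish members fell into 11 fibrillar, 3 basement membrane, 8 FACIT, 4 beaded, 5 short-chain network and 4 other genes. The zebrafish members fell into 15 fibrillar, 6 basement membrane, 13 FACIT, 5 beaded, 3 multiplexin, 5 short-chain network, 2 transmembrane, 2 anchoring fibril and 4 other genes. The class was assigned from the type number alone.

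The measurements were bulk RNA-seq counts from ventricles of adult wild-type (WT) fish in 4 groups of 3 libraries. Cryoinjured platyfish and cryoinjured zebrafish had part of the ventricle wall killed by freezing, and their hearts were taken on day 7. Uninjured platyfish and uninjured zebrafish had undergone no manipulation, so that the groups also differed in handling and surgery. Platyfish are livebearing teleosts, and zebrafish are egg-laying ones. The injured ventricles had been separated from atrium and bulbus arteriosus, the uninjured samples are likewise labelled as ventricles, and each library pooled 8 ventricles, with 24 fish injured per species. One label of the cryoinjured platyfish names zebrafish as the treated tissue, whereas the title, the organism and the library name give platyfish and were followed. With 3 pools per group, the p-values measure the spread between pools and not between single fish.

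Fibrillar collagens (types I, II, III, V, XI and relatives) form the tension-bearing fibrils of connective tissue and scars, and type V and XI chains help set where fibrils start and how thick they grow. Type IV chains form the sheet of basement membranes around muscle cells and vessels, type VI forms beaded microfilaments near cells, and FACIT collagens sit on the surface of fibrils and link them to other matrix. In the injured fish heart, collagen is laid down in the wound mainly by fibroblasts and epicardium-derived cells, and in zebrafish the deposit is later cleared as the muscle regenerates.

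Library totals were 19073562 to 31148127 counts in platyfish and 20735097 to 27994535 counts in zebrafish. Cryoinjured zebrafish replicates 2 and 3 stood apart, with 16530 and 15976 genes detected against 18102 to 18819 in the other zebrafish libraries. Heart muscle markers (10 symbols listed, with 7 platyfish and 11 zebrafish genes found) summed to 37458 to 43621 CPM (counts scaled to a common library total) in cryoinjured and 37709 to 41947 CPM in uninjured platyfish, and to 47750 to 57856 CPM in cryoinjured and 58570 to 67047 CPM in uninjured zebrafish. Bulbus and smooth muscle markers (5 of 6 found in platyfish and 6 in zebrafish, none at 0) summed to 204 to 423 CPM in cryoinjured against 98.4 to 187 CPM in uninjured platyfish and to 72.4 to 86.1 CPM in cryoinjured against 20.8 to 27.0 CPM in uninjured zebrafish. Ventricle markers (3 of 5 found in platyfish and 4 in zebrafish) summed to 7748 to 9612 CPM in cryoinjured and 9977 to 11240.3 CPM in uninjured platyfish, lower in every cryoinjured library, and to 14389 to 22094 CPM in cryoinjured and 21187 to 23215 CPM in uninjured zebrafish, which overlapped. Atrial markers (3 of 4 found in platyfish and 4 in zebrafish) summed to 29.6 to 46.5 CPM in cryoinjured and 35.1 to 36.0 CPM in uninjured platyfish, and to 3838 to 4776 CPM in cryoinjured and 3105 to 3981 CPM in uninjured zebrafish, where nppa gave nearly all of the sum. By edgeR (test below), 0 of 7 heart muscle markers were called in platyfish, and 0 of 11 rose and 3 fell in zebrafish. Of the bulbus and smooth muscle markers, 1 of 5 rose and 1 fell in platyfish, and 1 of 6 rose in zebrafish. Of all genes 2.7% rose and 1.22% fell in platyfish, and 0.676% and 0.304% in zebrafish. No ventricle or atrial marker was called in either species. With DESeq2 or the replicate block, 1 of 4 zebrafish ventricle markers fell, against 1.69% and 0.483% of all genes. DESeq2 called 3 of 5 bulbus and smooth muscle markers higher and 1 lower in platyfish (6.04% and 5.06% of all genes). In zebrafish it called 2 of 6 higher (2.72%). It called 1 of 7 heart muscle markers lower in platyfish and 4 of 11 in zebrafish (1.69%). With the replicate block, 1 bulbus marker rose in each species (1.33% and 0.883%), and 0 of 7 and 1 of 11 heart muscle markers fell (0.348% and 0.483%). The part of all these markers in the collagen values was not tested. In whole-ventricle RNA, a change in the number of collagen-making cells and a change in RNA per cell cannot be told apart.

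In platyfish, collagen transcripts took 4.59 times the share of the library in cryoinjured ventricles that they took in uninjured ones. They made up 0.0960%, 0.0476% and 0.0891% of all counts in cryoinjured replicates 1, 2 and 3, against 0.0152%, 0.0157% and 0.0198% in the uninjured replicates. The groups did not overlap, and cryoinjured replicate 2 was the lowest of its group. In zebrafish the shares were 0.0630%, 0.0607% and 0.0743% in cryoinjured ventricles, against 0.0372%, 0.0340% and 0.0372% in uninjured ones, which was a ratio of 1.83. The zebrafish groups did not overlap either, and every uninjured zebrafish library held a larger collagen share than every uninjured platyfish library. Scaled to effective library size, the ratio of summed collagen counts was 4.24 in platyfish and 1.62 in zebrafish. Mitochondrial genes took 17.7% to 21.6% of all counts in platyfish and 28.9% to 37.3% in zebrafish libraries. The values above are shares of counts with no correction for transcript length, and the species were counted on different annotations. Members were found by symbol, and 7648 of 24209 platyfish genes had no symbol, against 345 of 32520 zebrafish genes. A collagen gene without a symbol would be missing from the members, from these shares and from the class make-up. Levels and make-up of the 2 species are therefore not comparable as values of the whole family.

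**Figure D1:**
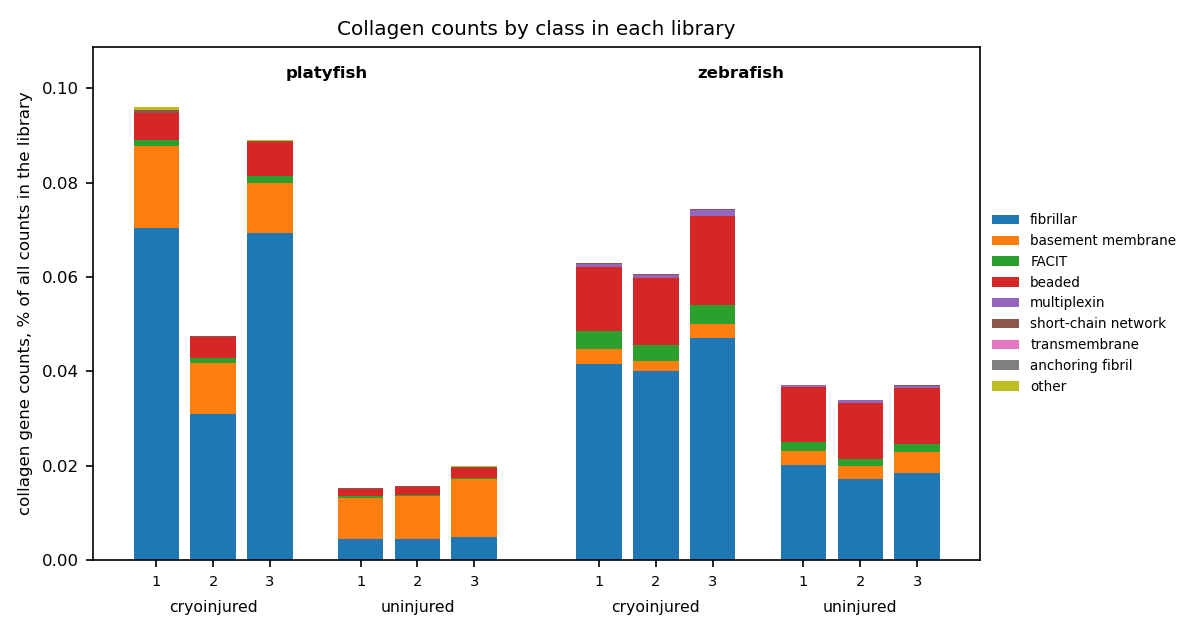
Collagen gene counts as a percentage of all counts in each of the 12 libraries, stacked by collagen class, with replicate numbers under the bars. The blue fibrillar part makes up 65.1% to 77.8% of the collagen counts in cryoinjured and 24.9% to 29.2% in uninjured platyfish, and the orange basement membrane part 11.9% to 22.8% in cryoinjured and 57.7% to 61.4% in uninjured platyfish.

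The make-up of the collagen counts differed with injury in platyfish. Fibrillar chains supplied 73.4%, 65.1% and 77.8% of collagen counts in cryoinjured platyfish, against 29.2%, 27.8% and 24.9% in uninjured platyfish. Basement membrane chains supplied 18.1%, 22.8% and 11.9% in cryoinjured platyfish, against 57.7%, 58.2% and 61.4% in uninjured platyfish. The uninjured platyfish ventricle thus gave mostly type IV counts and the cryoinjured one mostly fibrillar counts, with no overlap. In zebrafish the fibrillar share was 66.0%, 66.0% and 63.4% in cryoinjured and 53.9%, 50.7% and 49.9% in uninjured ventricles, so fibrillar counts led in both groups. The zebrafish basement membrane share was 5.11%, 3.72% and 3.84% in cryoinjured and 8.47%, 7.68% and 11.95% in uninjured ventricles, again with no overlap. The zebrafish beaded share was also lower without overlap, at 21.5%, 23.2% and 25.5% in cryoinjured and 31.1%, 34.6% and 32.0% in uninjured ventricles. FACIT shares ran from 5.48% to 5.94% in cryoinjured and 4.41% to 5.20% in uninjured zebrafish. In platyfish they overlapped, at 1.30% to 1.96% in cryoinjured and 1.35% to 2.11% in uninjured ventricles. Scaled to effective library size, summed fibrillar counts were 11.5-fold higher in cryoinjured than in uninjured platyfish and 2.05-fold higher in cryoinjured than in uninjured zebrafish. The same ratio for basement membrane chains was 1.18 in platyfish and 0.72 in zebrafish, and for beaded chains 2.98 in platyfish and 1.18 in zebrafish. For FACIT chains it was 3.90 in platyfish and 1.92 in zebrafish. These class sums were not tested.

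Of the 35 platyfish members, 4 had no count in any library (COL8A1, col11a1a, col2a1a and col9a1a), and 21 passed the filter on low counts and were tested. By edgeR's quasi-likelihood test with Benjamini-Hochberg adjustment over all genes tested, 11 members rose in cryoinjured platyfish at an adjusted p under 0.05 and 0 fell; of all 15226 genes tested, 2.7% rose and 1.22% fell. The members that rose were 6 of the 7 fibrillar genes tested, 1 of 3 basement membrane genes, 1 of 3 FACIT genes, 2 of 4 beaded genes, 0 of 2 short-chain genes and 1 of 2 others. The log2 fold changes of the 21 had a median of 1.62, against 0.01 over all genes tested, and 19 of them were above 0. Cryoinjured and uninjured values did not overlap in 11 members that were higher and 1 that was lower, against 16.8% and 13.6% of all genes. The counts describe tested members and not the whole family. A gene with few or no counts in 1 group, such as col11a1b, col28a2a or col14a1a, could pass the filter through the other group. With other rules 9 members rose with limma voom (2.21% of all genes) and 9 under the replicate block (1.33%), and 0 fell (0.985% and 0.348% of all genes). DESeq2 called 11 higher (6.04%) and 1 lower (5.06%), and at an unadjusted p under 0.05 edgeR gave 12 higher (13.2%) and 1 lower (10.9%). Leaving out certain single libraries left fewer calls, among the members and over all genes as well. Higher members numbered 6 without cryoinjured replicate 1 (0.801% of all genes), 5 without cryoinjured replicate 3 (0.27%), 4 without uninjured replicate 1 (0.135%) and 5 without uninjured replicate 2 (0.341%).

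Of the 55 zebrafish members, 10 had no count and 22 were tested. In cryoinjured zebrafish 3 members rose (col1a1b, col1a2 and col12a1a) and 0 fell by the same test; of all 13470 genes tested, 0.676% rose and 0.304% fell. These were 2 of 7 fibrillar genes and 1 of 3 FACIT genes, with 0 of 3 basement membrane, 0 of 4 beaded, 0 of 3 multiplexin and 0 of 2 short-chain genes. No transmembrane, anchoring fibril or other member reached the filter. The median log2 fold change of the 22 was 0.61, against -0.02 over all genes tested, with 17 above 0. The groups did not overlap in 9 members that were higher and 2 that were lower, against 10.8% and 10.9% of all genes. Here too a gene could pass the filter through the group where it was high. An example is col8a1b, one of the 9, with 11, 45 and 16 raw counts in cryoinjured and 3, 6 and 1 in uninjured ventricles. DESeq2 called 6 members higher (2.72% of all genes), adding col1a1a (adjusted p = 0.0123), col5a1 (0.00337) and col6a3 (0.0416), and 0 lower (1.69%). Both limma voom (0.505% higher and 0.252% lower of all genes) and the replicate block (0.883% and 0.483%) gave 3 higher members and 0 lower. At an unadjusted p under 0.05 edgeR gave 9 higher (8.31%) and 2 lower (7.15%). The 3 calls were kept with any 1 library left out, when 0.193% to 1.19% of all genes were called higher. Without cryoinjured replicates 2 and 3, an alternative chosen after seeing the data that leaves 1 cryoinjured library assumed to vary like the others, only col12a1a was called (0.0746% of all genes were higher), and col1a1b (1.23, adjusted p = 0.0701) and col1a2 (1.13, adjusted p = 0.212) were not.

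**Figure D2:**
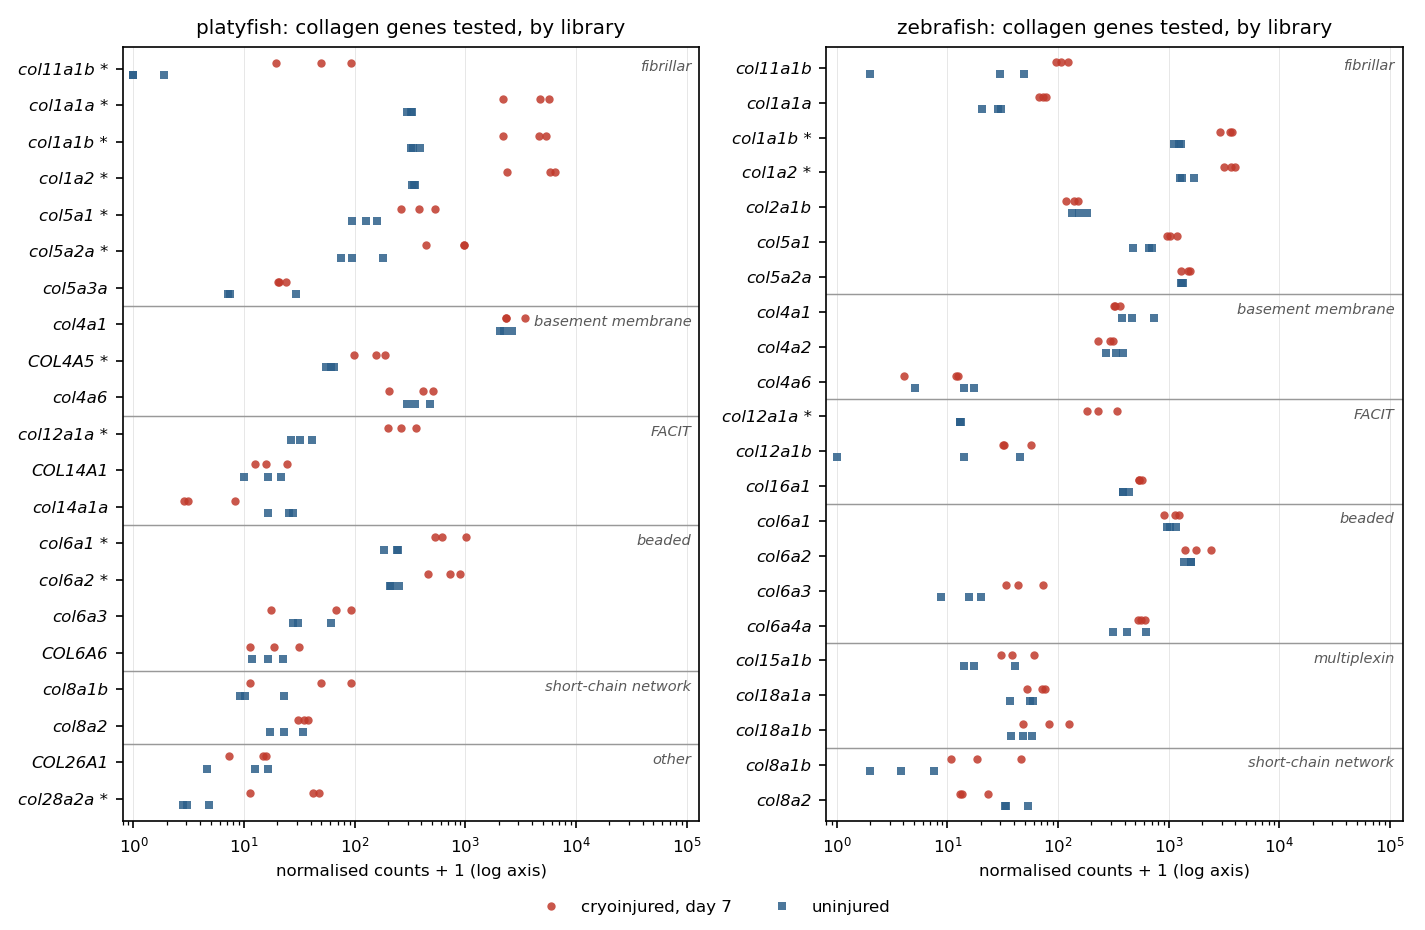
Normalised counts plus 1 on a log axis for the tested collagen genes of platyfish (left, 21 genes) and zebrafish (right, 22 genes), grouped by class, with 1 symbol per library: red circles cryoinjured, blue squares uninjured. An asterisk marks an adjusted p under 0.05; the red circles lie to the right of all blue squares in each of the 11 marked platyfish genes and the 3 marked zebrafish genes.

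Type I collagen is the main fibril-forming collagen of scar and connective tissue. Its alpha 1 chain is encoded by the copies col1a1a and col1a1b and its alpha 2 chain by col1a2 in both tables. In platyfish col1a1a (ENSXMAG00000016028, chromosome 16) had 4771, 2169 and 5686 normalised counts in cryoinjured ventricles, against 294, 328 and 321 in uninjured ones. Platyfish col1a1b (ENSXMAG00000017341, chromosome 10) had 4649, 2207 and 5383 normalised counts in cryoinjured and 319, 391 and 337 in uninjured ventricles. For col1a2 (ENSXMAG00000000698, chromosome 13) the values were 5774, 2377 and 6467 in cryoinjured and 351, 325 and 342 in uninjured platyfish. In each of the 3 genes cryoinjured replicate 2 was the lowest of its group and still lay far above every uninjured library. The log2 fold changes were 3.74 ± 0.35 (SE, adjusted p = 0.00611) for col1a1a, 3.55 ± 0.33 (adjusted p = 0.00576) for col1a1b and 3.84 ± 0.37 (adjusted p = 0.00611) for col1a2 by edgeR. These 3 calls and that of col12a1a were kept in all 13 alternative fits, 6 of which each left out 1 library.

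In zebrafish col1a1b (ENSDARG00000035809, chromosome 12) had 2878, 3557 and 3765 normalised counts in cryoinjured and 1225, 1118 and 1297 in uninjured ventricles. The values of col1a2 (ENSDARG00000020007, chromosome 19) were 3154, 3685 and 3984 in cryoinjured and 1698, 1317 and 1271 in uninjured zebrafish. Neither gene's groups overlapped, and the log2 fold changes were 1.49 ± 0.14 (adjusted p = 0.00118) for col1a1b and 1.34 ± 0.15 (adjusted p = 0.00356) for col1a2. The copy col1a1a (ENSDARG00000012405, chromosome 3) had 65.7, 76.1 and 72.3 normalised counts in cryoinjured and 19.5, 29.7 and 27.4 in uninjured zebrafish. Its groups did not overlap, but its log2 fold change of 1.48 ± 0.36 missed the threshold (adjusted p = 0.0861). Of the alternatives, DESeq2 called it.

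The 2 copies of the alpha 1 gene shared the counts differently in the 2 species. In platyfish col1a1a held 50.6%, 49.6% and 51.4% of the counts of both copies in cryoinjured and 47.9%, 45.6% and 48.8% in uninjured ventricles. In zebrafish it held between 1.88% and 2.23% in cryoinjured and between 1.56% and 2.59% in uninjured ventricles. The platyfish copies thus gave near-equal counts and the zebrafish ones did not; the platyfish shares were higher in every cryoinjured than in any uninjured library, and the zebrafish groups overlapped. Wilson 95% intervals, which cover counting error only, had a lower bound of 49.7% and an upper bound of 51.6% for cryoinjured platyfish replicate 1. For uninjured platyfish replicates 1, 2 and 3 they were 44.2% to 51.7%, 42.0% to 49.3% and 44.5% to 53.1%. Those of uninjured replicates 1 and 3 thus held all the cryoinjured platyfish shares. For cryoinjured zebrafish replicate 1 the bounds were 1.78% and 2.79%. Counts of similar copies are uncertain, since how reads that match both were handled is not given in the sources used here, and no transcript lengths were used. The gene col1a2 held 38.0%, 35.2% and 36.9% of type I counts in cryoinjured and 36.4%, 31.1% and 34.2% in uninjured platyfish. In zebrafish it held 51.7%, 50.4% and 50.9% in cryoinjured and 57.7%, 53.4% and 49.0% in uninjured ventricles, so in both species the groups overlapped. All type I counts together were 58.7% to 71.8% of collagen counts in cryoinjured and 20.6% to 22.6% in uninjured platyfish, and 45.8% to 48.3% in cryoinjured and 27.5% to 30.5% in uninjured zebrafish.

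**Figure D3:**
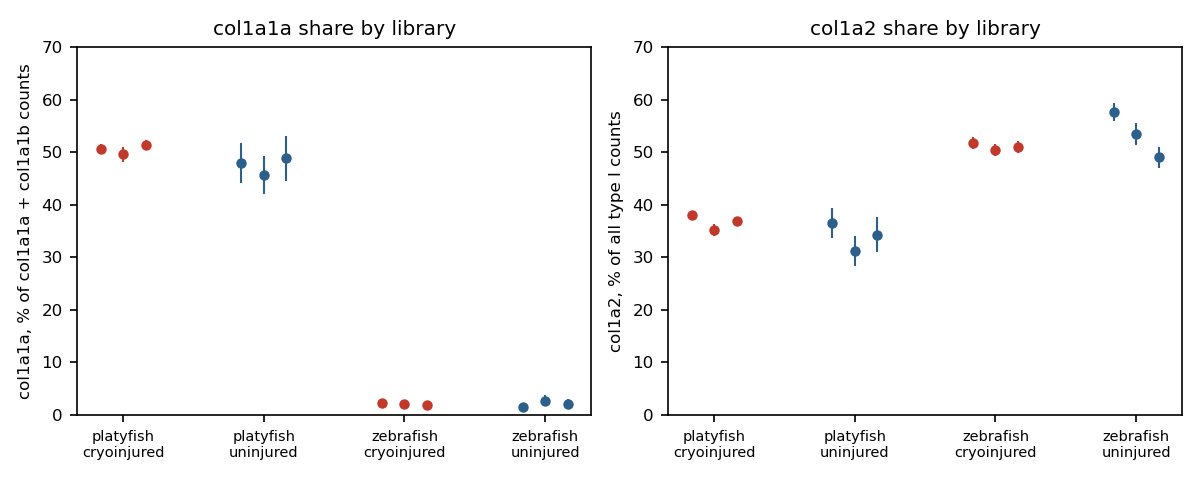
Shares of type I collagen counts by library, in percent, with 1 point per library in replicate order from left to right and bars for the Wilson 95% interval (counting error only). The col1a1a share (left) lies between 45.6% and 51.4% in platyfish and between 1.56% and 2.59% in zebrafish; the col1a2 share (right) lies between 31.1% and 38.0% in platyfish and between 49.0% and 57.7% in zebrafish.

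Type V and XI chains co-assemble with type I into mixed fibrils. Platyfish col5a1, the type V alpha 1 chain (ENSXMAG00000017898, chromosome 8), had 528, 258 and 380.0 normalised counts in cryoinjured and 158, 94.0 and 125 in uninjured ventricles. For col5a2a, a copy of the type V alpha 2 gene (ENSXMAG00000028362, chromosome 7), they were 972, 435 and 960.4 in cryoinjured and 92.5, 178 and 74.2 in uninjured platyfish. The groups did not overlap in either gene. The log2 fold changes were 1.62 ± 0.29 (adjusted p = 0.026) for col5a1 and 2.77 ± 0.42 (adjusted p = 0.0202) for col5a2a. The call of col5a1 was lost without cryoinjured replicate 1 (1.34) or 3 (1.63) or uninjured replicate 1 (1.82) or 2 (1.44). That of col5a2a was lost without cryoinjured replicate 1 (2.59) or 3 (2.60) or uninjured replicate 1 (2.63), and in the fit with a replicate block (2.78, adjusted p = 0.0998). The share of col5a1 in the counts of both genes was 35.2%, 37.2% and 28.3% in cryoinjured and 63.1%, 34.6% and 62.8% in uninjured platyfish, where uninjured replicate 2 lay inside the cryoinjured range.

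In zebrafish col5a1 (ENSDARG00000012593) had 972, 1176 and 1025 normalised counts in cryoinjured and 711, 477 and 657 in uninjured ventricles. The groups did not overlap, but the log2 fold change of 0.78 ± 0.17 missed the threshold (adjusted p = 0.0629). It passed under DESeq2 (0.79), with scaling by library size only (0.95) and with no filter on low counts (0.75). Zebrafish col5a2a (ENSDARG00000031678) had 1479.7, 1277 and 1569 normalised counts in cryoinjured and 1289.6, 1344 and 1309.9 in uninjured ventricles. These groups overlapped (log2 fold change 0.13 ± 0.13, adjusted p = 0.654). The share of col5a1 in the counts of both was 39.6%, 47.9% and 39.5% in cryoinjured and 35.6%, 26.2% and 33.4% in uninjured zebrafish, with no overlap.

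The type XI chain gene col11a1b (ENSXMAG00000000531, chromosome 6), known mainly from cartilage fibrils, had 48.7, 18.5 and 90.8 normalised counts in cryoinjured platyfish, against 0.898, 0 and 0 in uninjured ones. The uninjured libraries held 1 read in all, and the ratio of scaled counts was 147, with an exact 95% counting interval of 26.0 to 5844. Its log2 fold change of 6.81 ± 0.99 (adjusted p = 0.0162) depends on the prior count. The call was lost without cryoinjured replicate 3 (6.16) or uninjured replicate 1 (8.68) or 2 (6.34). In zebrafish col11a1b (ENSDARG00000009014) had 105, 95.4 and 122 normalised counts in cryoinjured and 48.2, 28.6 and 1.01 in uninjured ventricles. The uninjured libraries ranged widely without reaching the cryoinjured ones, and the log2 fold change was 2.03 ± 0.77 (adjusted p = 0.258). Cartilage and bone markers (6 of 8 found in platyfish and 7 in zebrafish) summed to 2.74 to 4.17 CPM in cryoinjured and 1.48 to 2.55 CPM in uninjured platyfish, and to 1.76 to 2.85 CPM in cryoinjured and 1.29 to 3.39 CPM in uninjured zebrafish; bglap and matn1 in platyfish and acanb and bglap in zebrafish were at 0. The other fibrillar genes tested were not called: platyfish col5a3a (0.53 ± 0.61, adjusted p = 0.628), and zebrafish col2a1b (-0.21 ± 0.23, adjusted p = 0.718), a copy of the cartilage type II gene.

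Type IV genes make the basement membrane network. Platyfish col4a1, the alpha 1 chain (ENSXMAG00000012380, chromosome 7), had 3437, 2315 and 2349.7 normalised counts in cryoinjured and 2045, 2227 and 2627 in uninjured ventricles. The groups overlapped, with a log2 fold change of 0.23 ± 0.19 (adjusted p = 0.489). On chromosome 14, COL4A5 (ENSXMAG00000014667) had 187, 98.2 and 154 normalised counts in cryoinjured and 60.2, 64.4 and 53.8 in uninjured platyfish, with no overlap (log2 fold change 1.30 ± 0.28, adjusted p = 0.0402). Its adjusted p was the highest of the 11 platyfish calls. It was lost without cryoinjured replicate 1 (1.08) or 3 (1.25) or any uninjured replicate (1.30, 1.35 and 1.23 without replicates 1, 2 and 3), with limma voom (1.24) and in the fit with a replicate block (1.26, adjusted p = 0.0802). The gene col4a6 on the same chromosome (ENSXMAG00000014539) had 511, 204 and 409 normalised counts in cryoinjured and 352, 481 and 293 in uninjured platyfish, fully overlapping (log2 fold change -0.01 ± 0.33, adjusted p = 0.995).

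Zebrafish col4a1 (ENSDARG00000055009, chromosome 9) had 364, 322 and 325 normalised counts in cryoinjured and 462, 374 and 728 in uninjured ventricles. Every cryoinjured library was below every uninjured one, but the log2 fold change of -0.63 ± 0.23 missed the threshold (adjusted p = 0.233). The alpha 2 chain gene col4a2, on the same chromosome (ENSDARG00000104110), had 297, 227 and 312 in cryoinjured and 331, 271 and 387 in uninjured zebrafish. Its groups overlapped (log2 fold change -0.24 ± 0.20, adjusted p = 0.611). Zebrafish col4a6 gave few counts and -0.38 ± 0.82 (adjusted p = 0.86). The 8 endothelial markers, all found and none at 0, of cells that rest on such membranes, summed to 742 to 1095 CPM in cryoinjured and 817 to 1057 CPM in uninjured platyfish and to 698 to 872 CPM in cryoinjured and 537 to 600.5 CPM in uninjured zebrafish, and their part in these values was not tested.

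Among FACIT collagens, col12a1a, the alpha chain of type XII collagen that coats type I fibrils, was called in both species. It had 261, 198 and 360.1 normalised counts in cryoinjured and 40.4, 25.5 and 30.7 in uninjured platyfish (ENSXMAG00000000284, chromosome 19). In zebrafish (ENSDARG00000078322, chromosome 17) it had 181, 229 and 343 in cryoinjured and 12.04, 12.1 and 12.2 in uninjured ventricles. Both species showed a wide gap between the groups, and the uninjured zebrafish libraries were nearly equal. The log2 fold change was 3.07 ± 0.29 (adjusted p = 0.00444) in platyfish and 4.36 ± 0.34 (adjusted p = 0.000253) in zebrafish, where it held the largest log2 fold change of the 22 tested members. Its share of collagen counts was 1.14% to 1.72% in cryoinjured and 0.54% to 0.95% in uninjured platyfish, and 1.36% to 2.03% in cryoinjured and 0.12% to 0.14% in uninjured zebrafish. The second zebrafish copy, col12a1b (ENSDARG00000019601), had 56.0, 31.5 and 30.7 normalised counts in cryoinjured and 44.5, 0 and 13.2 in uninjured ventricles. The highest uninjured value of col12a1b reached into the cryoinjured range (log2 fold change 1.02 ± 0.97, adjusted p = 0.662).

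Type XIV collagen is another fibril-coating collagen. Platyfish col14a1a (ENSXMAG00000010834) had 7.35, 1.85 and 2.09 normalised counts in cryoinjured and 24.2, 26.6 and 15.4 in uninjured ventricles. It was the one tested platyfish member whose cryoinjured libraries all lay below the uninjured ones, and its log2 fold change of -2.50 ± 0.60 missed the threshold (adjusted p = 0.0554). It passed under DESeq2 (-2.56, adjusted p = 0.0141) and without uninjured replicate 3 (-2.70, adjusted p = 0.0481). Platyfish COL14A1 gave 0.12 ± 0.48 (adjusted p = 0.908). Zebrafish col16a1, a FACIT-type gene (ENSDARG00000009194), had 537, 568 and 535 normalised counts in cryoinjured and 436, 387 and 385 in uninjured ventricles. These groups did not overlap, and the log2 fold change of 0.44 ± 0.14 was not called (adjusted p = 0.176).

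Type VI collagen forms beaded microfilaments from an alpha 1, an alpha 2 and a longer chain. Platyfish col6a1 (ENSXMAG00000011666) had 612, 529.7 and 1018 normalised counts in cryoinjured and 184, 238 and 244 in uninjured ventricles. Platyfish col6a2 (ENSXMAG00000011687) had 717, 459 and 885 in cryoinjured and 210.1, 206 and 248 in uninjured ventricles; both genes lie on chromosome 6. Neither gene's groups overlapped. The log2 fold changes were 1.70 ± 0.26 (adjusted p = 0.0174) for col6a1 and 1.63 ± 0.24 (adjusted p = 0.0162) for col6a2. The call of col6a1 was lost without uninjured replicate 1 (1.57) or 2 (1.74), and that of col6a2 without cryoinjured replicate 1 (1.60) or 3 (1.40) or uninjured replicate 1 (1.59) or 2 (1.58). The longer chains were not called: col6a3 had 16.5, 90.8 and 66.8 normalised counts in cryoinjured and 29.6, 60.3 and 26.9 in uninjured platyfish (0.57 ± 0.59, adjusted p = 0.591), and COL6A6 gave 0.30 ± 0.51 (adjusted p = 0.76).

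In zebrafish col6a1 (ENSDARG00000074908) had 904, 1129.8 and 1231 normalised counts in cryoinjured and 965, 1158 and 1017 in uninjured ventricles. The chain gene col6a2 (ENSDARG00000061436), also on chromosome 11, had 1403, 1747 and 2419.6 in cryoinjured and 1594, 1576 and 1362 in uninjured zebrafish. The groups of both genes overlapped, with log2 fold changes of 0.06 ± 0.15 (adjusted p = 0.892) and 0.30 ± 0.19 (adjusted p = 0.488). The symbol col6a3 stood at 2 zebrafish identifiers, of which ENSDARG00000077139 had counts. Its values were 32.9, 72.1 and 42.7 in cryoinjured and 14.8, 7.70 and 19.2 in uninjured zebrafish. Those groups did not overlap, and the log2 fold change of 1.81 ± 0.53 was not called (adjusted p = 0.141). The gene col6a4a gave 0.32 ± 0.23 (adjusted p = 0.536).

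The remaining classes gave low counts. The multiplexins, basement membrane collagens that carry endostatin-type domains, were listed in zebrafish. There col15a1b had 37.3, 29.4 and 59.1 normalised counts in cryoinjured and 13.0, 39.6 and 16.2 in uninjured ventricles, and col18a1a had 71.1, 51.8 and 74.4 in cryoinjured and 36.1, 58.3 and 54.7 in uninjured ventricles. Their groups overlapped, and the log2 fold changes were 0.87 ± 0.54 (adjusted p = 0.48) for col15a1b, 0.41 ± 0.35 (adjusted p = 0.625) for col18a1a and 0.85 ± 0.41 (adjusted p = 0.353) for col18a1b. Of the short-chain genes, which form lattices such as that of Descemet's membrane in the eye, col8a1b gave 1.96 ± 0.75 (adjusted p = 0.161) in platyfish and 2.79 ± 0.89 (adjusted p = 0.179) in zebrafish. For col8a2 the log2 fold change was 0.50 ± 0.38 (adjusted p = 0.45) in platyfish. Zebrafish col8a2 had 12.4, 22.3 and 12.04 normalised counts in cryoinjured and 32.4, 33.0 and 52.7 in uninjured ventricles, with no overlap (-1.33 ± 0.50, adjusted p = 0.243).

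Platyfish col28a2a, a type XXVIII gene (ENSXMAG00000004856), had 46.8, 10.2 and 40.7 normalised counts in cryoinjured and 1.80, 2.04 and 3.84 in uninjured ventricles. The groups did not overlap (log2 fold change 3.66 ± 0.73, adjusted p = 0.0333). The call was lost with limma voom (3.22) and without cryoinjured replicate 1 (3.29) or 3 (3.45) or uninjured replicate 1 (3.44) or 2 (3.52). The second copy, col28a2b, did not pass the filter. It had 52.4, 10.2 and 10.4 normalised counts in cryoinjured and 0 in all 3 uninjured platyfish libraries. The cryoinjured mean, most of which came from replicate 1, was 7.60 times a floor of 3 counts per uninjured library. In zebrafish these 2 copies had 1 count and 0 counts in all 6 libraries. Platyfish COL26A1 gave 0.22 ± 0.62 (adjusted p = 0.853).

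In the authors' deposited table, 12 platyfish members were higher in cryoinjured ventricles and 1 was lower at an adjusted p under 0.05, against 5.5% and 4.64% of the genes with a value there. The authors' deposited table added col28a2b (higher) and col14a1a (lower) to the 11 above. For zebrafish the authors' deposited table held 5 members that were higher, against 2.81% of genes, and 0 that were lower, against 1.77%. They were col12a1a, col1a1a, col1a1b, col1a2 and col5a1.

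Whether the collagen response differed between the species was tested as the platyfish log2 response minus the zebrafish one. Of 29 collagen symbols that occurred once in each table, 13 could be tested. The response was higher in platyfish for 5 (col1a1a, col1a1b, col1a2, col5a2a and col6a1) and higher in zebrafish for 0; of all 8098 symbols tested, 1.36% and 1.14% were called in these directions. Limma voom called 4 (1.37% of all symbols) and 0 (1.05%), the replicate block 4 (0.58%) and 0 (0.445%), and an unadjusted p under 0.05 marked 10 (10.4%) and 1 (9.04%). Without uninjured platyfish replicate 1 (0.553% of all symbols) or 2 (0.43%), 3 differences were called. The 13 differences had a median of 1.64, against 0.05 over all symbols, and 11 were above 0. The 5 were 4 of 6 fibrillar genes and 1 of 2 beaded genes, with 0 of 2 basement membrane, 0 of 1 FACIT and 0 of 2 short-chain genes. The beaded gene col6a3 was not among the 13, because its symbol stood at 2 zebrafish identifiers. With copies summed, its difference was -1.23 (adjusted p = 0.437). A shared symbol does not establish that the genes are orthologs.

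Among the type I genes the response of col1a2 was 2.51 ± 0.40 (SE) higher on the log2 scale in platyfish than in zebrafish (adjusted p = 0.0121). The difference was 2.06 ± 0.36 (adjusted p = 0.0155) for col1a1b and 2.26 ± 0.44 (adjusted p = 0.0199) for col1a1a. With the copies summed, col1a1 still differed by 2.16 (adjusted p = 0.0123). For col5a2a, the difference was 2.64 ± 0.44 (adjusted p = 0.0142), with a platyfish log2 response of 2.77 and a zebrafish one of 0.13. For col6a1 it was 1.64 ± 0.32 (adjusted p = 0.0197), with responses of 1.70 in platyfish and 0.06 in zebrafish. The call of col1a1a was lost with limma voom (2.14, adjusted p = 0.133) and without uninjured zebrafish replicate 3 (adjusted p = 0.0536) or uninjured platyfish replicate 1 (0.0509) or 2 (0.0523). That of col5a2a was lost with the replicate block (2.65, adjusted p = 0.0521), and that of col6a1 without uninjured platyfish replicate 1 (1.51) or 2 (1.69). Without cryoinjured zebrafish replicates 2 and 3 none of the 5 was called, at differences of 2.39 for col1a1a, 2.32 for col1a1b, 2.72 for col1a2, 2.62 for col5a2a and 1.92 for col6a1.

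The other 8 differences were not called. For col6a2 the difference was 1.34 ± 0.33 (adjusted p = 0.0523); it passed under DESeq2 (1.31) and without cryoinjured zebrafish replicate 3 (1.58) or cryoinjured platyfish replicate 2 (1.56). For col11a1b it was 4.75 ± 1.67 (adjusted p = 0.14) and for col8a2 1.83 ± 0.58 (adjusted p = 0.109), both called by DESeq2. DESeq2 called 8 higher in platyfish, against 3.85% of all symbols, and 0 higher in zebrafish, against 3.94%. In col12a1a the sign ran the other way, at -1.29 ± 0.46 (adjusted p = 0.143). With the copies summed it was -0.12 (adjusted p = 0.938), but no second platyfish copy was listed by symbol, so only zebrafish copies were summed. The differences of col4a1 (0.86 ± 0.32, adjusted p = 0.168), col5a1 (0.84 ± 0.36, adjusted p = 0.214), col4a6 (0.37 ± 0.72, adjusted p = 0.82) and col8a1b (-0.83 ± 1.22, adjusted p = 0.752) were not called either.

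**Figure D4:**
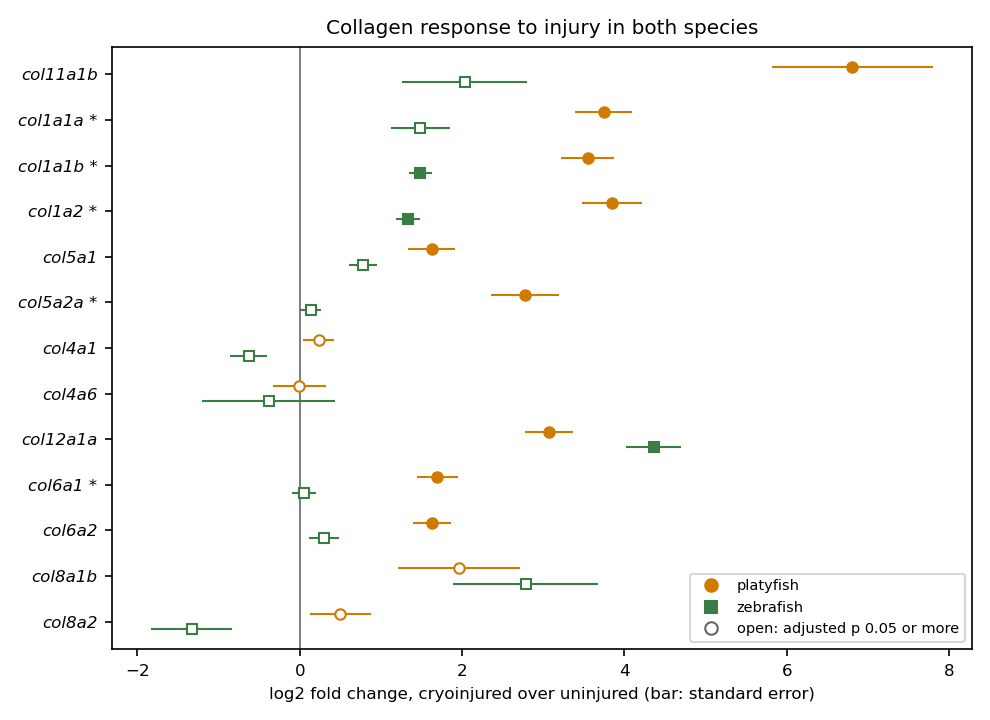
Log2 fold change of cryoinjured over uninjured ventricles for the 13 collagen symbols tested in both species, with bars for the standard error; orange circles are platyfish, green squares zebrafish, and filled symbols have an adjusted p under 0.05. An asterisk marks a called difference between the species: col1a1a, col1a1b, col1a2, col5a2a and col6a1, whose orange circles lie to the right of the green squares.

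The genes that hydroxylate, export, trim, cross-link, organise, bind and degrade collagen were examined beside the chains, as 7 lists of 98 symbols. In platyfish 68 were tested, of which 17 rose and 1 fell in cryoinjured ventricles, against 2.7% and 1.22% of all genes; with the replicate block 11 rose and 1 fell, against 1.33% and 0.348%. Without cryoinjured replicate 1, 6 rose (0.801% of all genes), without cryoinjured replicate 3 (0.27%) or uninjured replicate 2 (0.341%), 5 rose, and without uninjured replicate 1, 3 rose (0.135%); the 1 that fell was not called without uninjured replicate 1 or 2 or any cryoinjured replicate. In zebrafish 62 were tested, of which 9 rose and 0 fell, against 0.676% and 0.304% of all genes. There 5 rose without cryoinjured replicate 2 (0.193% of all genes), uninjured replicate 1 (0.285%) or uninjured replicate 3 (0.213%), and 1 fell without cryoinjured replicate 1 (0.886%). DESeq2 called 25 higher (6.04% of all genes) and 1 lower (5.06%) in platyfish and 16 higher (2.72%) and 0 lower (1.69%) in zebrafish. The median log2 fold change was 0.53 in platyfish and 0.41 in zebrafish. These counts describe tested genes only, because a gene with few counts in 1 group could pass the filter through the other group.

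The counts of each list below stand against 2.7% of all genes higher and 1.22% lower in platyfish, and 0.676% and 0.304% in zebrafish. A single call in a short list describes that gene and not the list. Of the hydroxylation and folding genes, 2 of 23 rose in platyfish and 1 of 17 in zebrafish. In platyfish they were p4ha3, a prolyl hydroxylase subunit (4.36 ± 0.71, adjusted p = 0.0194), and the lysyl hydroxylase plod2 (2.69 ± 0.32, adjusted p = 0.00989). The zebrafish gene was serpinh1b, the collagen chaperone Hsp47 (1.25 ± 0.21, adjusted p = 0.0258). Of the export genes, sar1ab, a GTPase of the transport vesicle coat, fell in platyfish (-1.17 ± 0.22, adjusted p = 0.0303), as 1 of 5 tested, and 0 of 7 changed in zebrafish. Of the propeptide cleavage genes, 2 of 7 rose in platyfish, the protease adamts2 (2.38 ± 0.42) and the protease enhancer pcolcea (2.25 ± 0.32), and 0 of 4 in zebrafish.

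The counts of these lists stand against the same 2.7% and 0.676% of all genes higher. Of the cross-linking lysyl oxidases, 3 of 7 rose in platyfish, loxa (2.57 ± 0.27, adjusted p = 0.00611), loxl2a (2.00 ± 0.22, adjusted p = 0.00685) and loxl2b (1.32 ± 0.30, adjusted p = 0.0489). In zebrafish 1 of 8 rose, loxl2b (2.14 ± 0.30, adjusted p = 0.011). Zebrafish loxa was not called, at 3.72 ± 0.87 (adjusted p = 0.078), with a mean of 2.39 normalised counts in uninjured ventricles. The species difference of loxa was -1.16 ± 0.75 (adjusted p = 0.427) and was not called either. DESeq2 called 5 of 7 lysyl oxidases higher in platyfish and 3 of 8 in zebrafish, against 6.04% and 2.72% of all genes. Of the assembly partners, 7 of 10 rose in platyfish and 6 of 12 in zebrafish. In platyfish the largest log2 fold changes were those of the proteoglycan lum (5.14 ± 0.96), the fibronectin fn1b (2.47 ± 0.51), thbs2a (2.47 ± 0.35) and thbs1b (1.47 ± 0.23), both thrombospondins. In zebrafish they were, among the called genes, those of the periostin postnb (4.62 ± 0.26), fn1b (2.80 ± 0.17), fn1a (2.75 ± 0.46) and thbs1b (1.57 ± 0.16). Zebrafish lum was not called, at 3.86 ± 0.92 (adjusted p = 0.0807). The species difference of lum was 1.28 ± 1.55 (adjusted p = 0.424). Of the receptors, 1 of 8 rose in platyfish, the collagen uptake receptor mrc2 (1.43 ± 0.27, adjusted p = 0.0281), and 0 of 6 in zebrafish. The call of mrc2 was lost with the replicate block. Of the degradation genes, the gelatinase mmp2 rose in both species (3.58 ± 0.36 in platyfish and 1.52 ± 0.15 in zebrafish), and the protease fap in platyfish (2.96 ± 0.57), as 2 of 8 tested in platyfish and 1 of 8 in zebrafish. In platyfish lum averaged 117 normalised counts in cryoinjured and 3.32 in uninjured ventricles, p4ha3 39.1 in cryoinjured and 1.96 in uninjured ones, and fap 19.98 in cryoinjured and 2.47 in uninjured ones, so that these uninjured means were low. The genes lum, p4ha3 and fap could pass the filter on low counts through the cryoinjured group alone, and each counts among the platyfish genes that rose.

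The response of 3 of 48 such symbols was higher in platyfish, plod2 (2.77 ± 0.38, adjusted p = 0.00528), thbs2a (2.25 ± 0.46, adjusted p = 0.0225) and mmp2 (2.06 ± 0.39, adjusted p = 0.0193). Of all symbols 1.36% were called in this direction. Without cryoinjured zebrafish replicate 1 (3.75% of all symbols) or 3 (1.04%) there were 5 such differences, and without uninjured platyfish replicate 1 (0.553%) or 2 (0.43%) there was 1. The response was higher in zebrafish for 2 (1.14% of all symbols), sar1ab (-1.53 ± 0.33, adjusted p = 0.031) and fn1a (-2.26 ± 0.50, adjusted p = 0.032); this count was 0 without cryoinjured zebrafish replicate 2, uninjured zebrafish replicate 1 or cryoinjured platyfish replicate 2, and 1 without any of the other libraries but cryoinjured zebrafish replicates 1 and 3 and uninjured platyfish replicate 3. DESeq2 called 7 higher in platyfish (3.85%) and 3 higher in zebrafish (3.94%). The replicate block gave 3 higher in platyfish (0.58%) and 1 higher in zebrafish (0.445%). It lost thbs2a and sar1ab, and added 1 cross-linking symbol that was higher in platyfish.

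**Figure D5:**
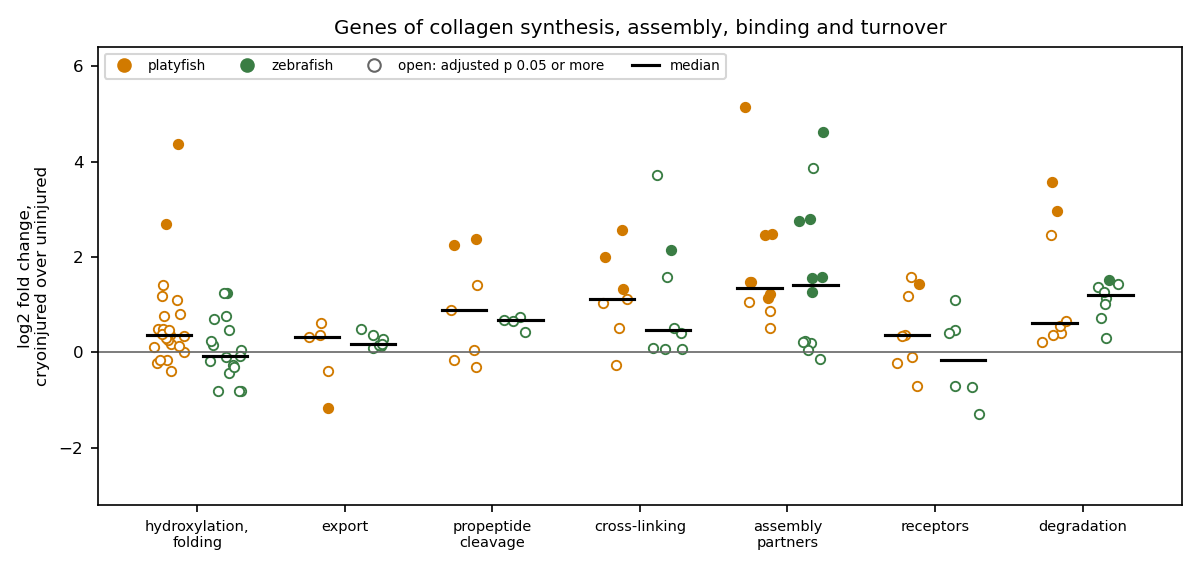
Log2 fold change of cryoinjured over uninjured ventricles for tested genes of 7 collagen-related lists, 1 point per gene, platyfish in orange and zebrafish in green; filled points have an adjusted p under 0.05 and black bars are medians. Filled points are most frequent among the assembly partners, with 7 of 10 in platyfish and 6 of 12 in zebrafish, all higher, against 2.7% and 0.676% of all genes.

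Summed markers of fibroblasts and epicardium, cells that make wound collagen, were higher in all cryoinjured than in all uninjured libraries of both species. They (11 of 12 found in platyfish and 12 in zebrafish, none at 0) summed to 194 to 272 CPM in cryoinjured and 123 to 155 CPM in uninjured platyfish. Of the 10 tested in platyfish, 3 were called higher, against 2.7% of all genes. In zebrafish they summed to 123 to 167 CPM in cryoinjured and 61.4 to 79.1 CPM in uninjured ventricles, with 1 of 8 called higher, against 0.676% of all genes. DESeq2 called 6 of 10 and 3 of 8 higher (6.04% and 2.72%), and the replicate block 3 and 2 (1.33% and 0.883%). Their median log2 fold change was 0.94 in platyfish and 1.60 in zebrafish. The species difference had a median of -0.61, and 0 of 7 were called, against 1.36% and 1.14% of all symbols. Leukocyte markers (9 of 10 found in platyfish and 10 in zebrafish, none at 0) summed to 469 to 556 CPM in cryoinjured and 240.3 to 501 CPM in uninjured platyfish, and to 1207 to 1528 CPM in cryoinjured and 559 to 791 CPM in uninjured zebrafish, and the platyfish ranges overlapped. Liver markers (5 of 6 found in platyfish and 6 in zebrafish) summed to 125 to 248 CPM in cryoinjured and 10.6 to 15.8 CPM in uninjured zebrafish, with serpina1 at 0, and to 4.83 to 7.53 CPM in cryoinjured and 5.07 to 5.98 CPM in uninjured platyfish. Thrombocyte markers (4 of 5 found in platyfish and 5 in zebrafish, none at 0) summed to 40.0 to 49.8 CPM in cryoinjured and 13.1 to 19.9 CPM in uninjured platyfish, and to 37.8 to 55.1 CPM in cryoinjured and 13.6 to 22.4 CPM in uninjured zebrafish. Of the thrombocyte markers tested, 3 of 4 were called higher in platyfish and 1 of 5 in zebrafish. For leukocyte markers these counts were 0 of 7 and 2 of 8, and for liver markers 0 of 2 and 1 of 1. They stand against the same 2.7% and 0.676% of all genes. With the replicate block 1 of 4 and 1 of 5 thrombocyte and 0 of 7 and 2 of 8 leukocyte markers were higher (1.33% and 0.883%). DESeq2 called 3 of 4 and 2 of 5 thrombocyte and 2 of 7 and 3 of 8 leukocyte markers higher (6.04% and 2.72%). Erythrocyte marker sums overlapped between the groups in both species, and 0 of these markers were called. The fibroblast markers lum and postnb also stand in the list of assembly partners. The zebrafish fibroblast call by edgeR without the block (postnb) and 1 of the platyfish ones (lum) were thus already counted there. The part of these cells in the collagen values was not tested.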

How the data were processed

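RNA from pools of 8 ventricles was sequenced as TruSeq stranded mRNA libraries, per the labels' protocols, in 4 groups of 3 libraries. The submitters' processing notes name FastQC, HISAT2 2.2.1, featureCounts 2.0.1 and DESeq2 1.38.3. They name the zebrafish build GRCz11 for samples of both species; the platyfish build, the strand setting and the handling of reads with several matches are not given in the sources used here. The authors deposited raw counts per gene, used unchanged. The authors also deposited normalised counts, a signal of counts divided by 1 factor per library (checked), log2 fold changes, a test score and p-values. From these, only the calls, by adjusted p-value and direction of change, were set beside the results here. The sizes of the deposited log2 fold changes were not compared.

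The tests used edgeR 4.0.16 in R 4.3.3, with a separate fit per species (filterByExpr, TMM factors, robust glmQLFit, glmQLFTest), with Benjamini-Hochberg adjustment over all genes tested and a threshold of 0.05. For normalised counts, each count was divided by the effective size of its library and multiplied by the mean effective size. Standard errors came from the log2 fold change and the F statistic. For the species difference, 12 libraries were fitted with 4 group means and TMM factors within species, over symbols found once in each table in lower case. Alternatives were DESeq2 1.42.0, limma 3.58.1 voom, other scalings, no filter, a replicate block, summed copies and each library left out; leaving out both cryoinjured zebrafish replicates 2 and 3 was added after seeing the data. Figures used matplotlib 3.10.9. The fits were also run on simulated data in which only genes with high mean counts were changed. Calls at low counts, such as those of platyfish col11a1b and col28a2a, were not covered by it. All 12 columns of raw counts, and the deposited normalised count column of each library, were mapped by name.

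Members and gene lists were chosen with earlier results of these data known. Named were all called collagen genes, a panel of collagen genes, in each class the gene with the highest mean normalised count, and per species the 3 largest changes in each direction among those not called. Called genes of a pathway list were named up to 4 per list, by size of change. Other members named here were chosen after their values were seen.

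Per the labels, the tag named batch holds the replicate number. Deviations of same-numbered libraries from their group means correlated at -0.0854, -0.184 and -0.178 in platyfish and at 0.134, 0.140 and 0.0123 in zebrafish, so the numbers were not taken as pairs. Libraries of a group differed by at least 23.8 in chi-square per degree of freedom, so none was a copy of another. Counting intervals cover counting error only, since reads carry no molecular identifiers.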

Additional observations from a re-analysis of the deposited data

Results flagged for a closer look

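The response to injury of 5 collagen genes differed between platyfish and zebrafish by a test of the difference itself, in which the platyfish log2 response was larger by 2.26 for col1a1a, 2.06 for col1a1b, 2.51 for col1a2, 2.64 for col5a2a and 1.64 for col6a1. All cryoinjured platyfish libraries lay above all uninjured ones for each of these genes, whereas the zebrafish groups overlapped for col5a2a and col6a1. Without cryoinjured zebrafish replicates 2 and 3, which leaves 1 library in that group, none of the 5 was called (0.153% of all symbols were called higher in platyfish), at differences of 2.39 for col1a1a, 2.32 for col1a1b, 2.72 for col1a2, 2.62 for col5a2a and 1.92 for col6a1. Differences in annotation between the species were not tested.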

How the results depend on the processing

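With 3 pools per group, 7 of the 11 platyfish calls were lost without 1 library or another. Leaving out 1 library at a time gave 4 to 11 platyfish members higher and 0 to 1 lower, 3 to 3 zebrafish members higher and 0 to 0 lower, and 3 to 6 differences higher in platyfish and 0 to 0 higher in zebrafish. Of all genes tested, 0.135% to 3.68% were then higher and 0.0385% to 2.81% lower in platyfish. In zebrafish 0.193% to 1.19% were higher and 0.0071% to 0.886% lower. Of all symbols, 0.43% to 3.75% differed towards platyfish and 0.381% to 2.09% towards zebrafish. The median log2 fold change of tested members then ran from 1.26 to 1.85 in platyfish, 0.45 to 0.65 in zebrafish and 1.30 to 1.82 for the difference. The pathway genes tested with 1 library left out numbered 69 to 71 in platyfish and 62 to 65 in zebrafish. Of these 3 to 19 rose and 0 to 1 fell in platyfish, and 5 to 11 rose and 0 to 1 fell in zebrafish. Of 48 to 50 pathway symbols tested for the difference, 1 to 5 were higher and 0 to 2 lower in platyfish. The 19 came without uninjured platyfish replicate 3, where 3.68% of all genes were higher. The mean col1a1a share of both copies ran from 50.1% to 51.0% in cryoinjured and 46.8% to 48.4% in uninjured platyfish and from 1.99% to 2.16% in cryoinjured and 1.81% to 2.33% in uninjured zebrafish. The col1a2 share of type I ran from 36.0% to 37.4% in cryoinjured and 32.7% to 35.3% in uninjured platyfish and from 50.6% to 51.3% in cryoinjured and 51.2% to 55.6% in uninjured zebrafish.

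DESeq2 gave 1 lower platyfish member, 6 higher zebrafish members, 8 differences higher in platyfish, 16 higher zebrafish pathway genes and 7 pathway differences higher in platyfish. With the replicate number as a block, 9 platyfish and 3 zebrafish members were higher and 4 differences were called, with 11 higher platyfish pathway genes and 1 lower pathway difference; the block lost COL4A5 and col5a2a in platyfish and col5a2a in the difference and changed no other collagen call. The replicate numbers were not shown to pair libraries, and what a call lost under the block says about the effect was not tested. In platyfish COL4A5 was also lost with limma voom and in 5 of 6 fits that left out 1 library. Platyfish col5a2a was lost in 3 of those 6. The zebrafish median was 0.78 with library size only, where the median of all genes moved to 0.16 in zebrafish and 0.14 in platyfish, and 0.27 with no filter. Without cryoinjured zebrafish replicates 2 and 3, 1 zebrafish member was higher (median 0.45), 2 zebrafish pathway genes were higher, 0 collagen differences were called, and pathway differences numbered 1 higher and 0 lower; that fit leaves 1 cryoinjured zebrafish library.

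Signs were followed across the alternative fits for the collagen genes named by the rules above, and not for the other members. Among the genes followed, signs turned only in those that were not called. In platyfish col4a6 was at 0.15 with library size only and ran from -0.30 to 0.29 with 1 library left out. In zebrafish col4a6 ran from -0.78 to 0.013 and col6a1 from -0.045 to 0.17 with 1 library left out. Without cryoinjured zebrafish replicates 2 and 3, col4a6 was at 0.036, col6a1 at -0.23, col6a2 at -0.12 and col18a1b at -0.010. The difference of col4a6 ran from -0.026 to 0.77 and that of col8a1b from -1.61 to 0.0078 with 1 library left out, and without both they were -0.047 and 0.49. The cause was not tested. The filter on low counts left out 14 of 35 platyfish and 33 of 55 zebrafish members; with no filter 31 platyfish members were tested, of which 12 were higher (2.44% of all genes), and 45 zebrafish members, of which 4 were higher (1.24%).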
